A study of Mus musculus with 18 samples.

Results

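Retnla, Chil3 and Chil4 encode secreted proteins that mouse macrophages make in the alternatively activated state. Their 3 rows were found among 48794 in the count table by matching the Ensembl identifiers ENSMUSG00000061100, ENSMUSG00000040809 and ENSMUSG00000063779 to GENCODE symbols on GRCm38. RNA was sequenced from bone marrow-derived macrophages of male mice of the strain C57BL/6. All 3 groups were matured for 7 days with recombinant human M-CSF at 50 ng/ml and then kept for 24 h with M-CSF at 10 ng/ml, alone in Control, with IL-4 and IL-13 at 10 ng/ml each in IL4_IL13, and with IL-4, IL-13 and TNFa at 10 ng/ml each in IL4_IL13_TNFa. Each group held 6 libraries, numbered 1 to 6. Neither the age of the mice nor a separate animal or culture for each library is given in the labels, so the p-values reflect only how these libraries spread, and that spread may be technical.

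Retnla (also called Fizz1 or RELMa) is a small cysteine-rich protein of the resistin family, which in mice is induced by type 2 cytokines and acts on tissue repair and on the type 2 response itself. Chil3 (Ym1) and Chil4 (Ym2) are chitinase-like proteins of the glycoside hydrolase 18 family: they keep the fold of a chitinase but lack its activity, and Ym1 is known to form crystals in inflamed mouse airways. IL-4 and IL-13 signal through receptors that share the Il4ra chain and activate the transcription factor STAT6, and binding of STAT6 and C/EBP proteins upstream of Retnla is known from mouse cells. TNFa is an inflammatory cytokine that acts mainly through NF-kB.

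Retnla lies on chromosome 16 from 48842551 to 48844461 on the + strand. Chil3 (chromosome 3 from 106147554 to 106167564) and Chil4 (chromosome 3 from 106201490 to 106219507) lie on the - strand, 33926 bases apart. The 250 bases before each RefSeq start are shown because these genes rose together and then separated. The gene bounds above are from GENCODE. For Retnla and Chil4 the RefSeq start lies inside these bounds, so their windows reach into them, while the Chil3 window ends at its bound. The sequences are from RefSeq on GRCm38.p6, at chr16:48842359-48842608 (+) for Retnla, chr3:106167565-106167814 (-) for Chil3 and chr3:106219480-106219729 (-) for Chil4, each written 5′ to 3′ on the gene's strand, and capitals mark the matches to the motifs described after them.
Retnla: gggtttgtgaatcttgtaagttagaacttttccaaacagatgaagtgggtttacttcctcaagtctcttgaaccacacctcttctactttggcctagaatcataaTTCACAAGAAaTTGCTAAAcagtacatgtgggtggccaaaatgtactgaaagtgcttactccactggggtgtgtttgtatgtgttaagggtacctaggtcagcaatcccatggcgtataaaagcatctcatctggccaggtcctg
Chil3: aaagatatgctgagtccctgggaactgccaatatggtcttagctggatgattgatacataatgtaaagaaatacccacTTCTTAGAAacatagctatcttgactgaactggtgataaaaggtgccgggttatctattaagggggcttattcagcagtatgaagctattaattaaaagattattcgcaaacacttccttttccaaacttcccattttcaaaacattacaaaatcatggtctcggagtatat
Chil4: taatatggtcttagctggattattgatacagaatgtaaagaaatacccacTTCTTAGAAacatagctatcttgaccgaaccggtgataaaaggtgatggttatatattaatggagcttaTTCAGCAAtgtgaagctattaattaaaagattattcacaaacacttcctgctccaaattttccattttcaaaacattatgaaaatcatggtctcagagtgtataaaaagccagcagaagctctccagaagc

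The 4 motifs, chosen after these windows had been seen, were searched on both strands, and none of the matches found overlap each other. The motif TTCNNNNGAA, the form known to be preferred by STAT6, matched in Retnla from -145 to -136 relative to the RefSeq start. It occurred in 5.85% of 32851 RefSeq windows of 250 bases. The related form TTCNNNGAA, with a shorter spacer, matched in Chil3 from -172 to -164 and in Chil4 from -200 to -192, as the same letters TTCTTAGAA, and occurred in 7.02% of windows. The offset of 28 bases between these positions depends on where each start is annotated. The C/EBP-type motif TTGCNNAA matched in Retnla from -134 to -127, with 1 base between it and the STAT6-type motif. It also matched on the other strand in Chil4 from -131 to -124, but not in the Chil3 window, and occurred in 9.56% of windows. The NF-kB-type motif GGGNNTTTCC was in none of the 3 windows and in 1.41% of all windows. Over windows of 300 bases that reach 50 bases past the start, Chil3 and Chil4 aligned over 271 bases, of which 251 were identical (92.6%), with a longest identical run of 53 bases. A match describes the letters in these windows and shows no binding.

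Chil3 and Chil4 are also near copies of each other as transcripts, which bears on how their counts can be read. Their main GENCODE transcripts each have 11 exons and 1539 bases and differ at 117 of them (92.4% identity). In the coding part, from base 44 to base 1237, 55 bases differ (95.4% identity), and 64 of the 117 differences are in exon 11. The stretch from base 860 to base 959 of each transcript is shown as an example of coding sequence that separates the genes, with the 12 differing bases in capitals.
Chil3: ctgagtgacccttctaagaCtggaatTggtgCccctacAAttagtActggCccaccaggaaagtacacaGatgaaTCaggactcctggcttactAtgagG
Chil4: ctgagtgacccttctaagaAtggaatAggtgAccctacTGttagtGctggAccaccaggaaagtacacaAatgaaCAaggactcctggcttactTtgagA

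**Figure D1:**
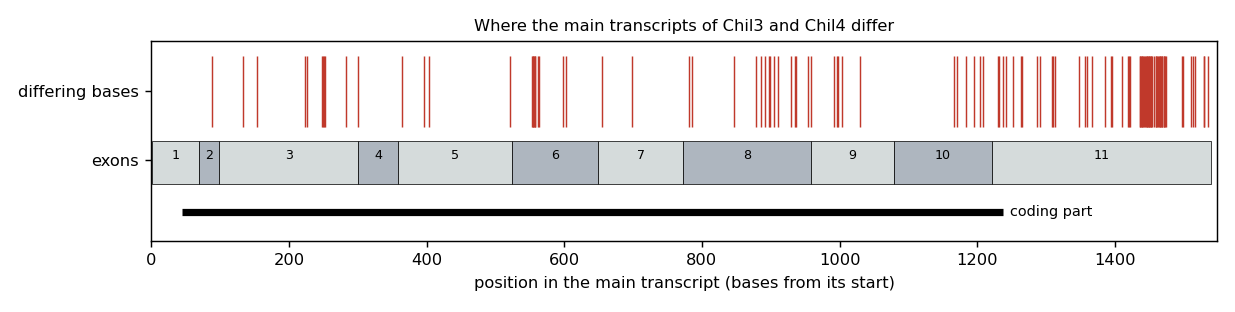
Positions at which the main transcripts of Chil3 and Chil4 differ (red lines), by base from the transcript start, above the 11 exons and the coding part (black bar). The 117 differences are spread along the transcript, and 64 of them lie in exon 11.

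The longest stretch without a difference was 136 bases, starting at base 1030, so a read of 150 bases placed anywhere in the main transcript would cover at least 1 difference. Of all windows of 50 bases, 18.5% were identical between the 2 transcripts, of 75 bases 8.53%, of 100 bases 3.75% and of 150 bases 0 of 1390. Neither the read length nor the treatment of reads that match several genes is stated. The Chil3 and Chil4 counts are uncertain to the extent that reads were split, dropped or given to the wrong gene of the pair. This limit weighs most on Chil4, with 9 to 16 counts per IL4_IL13_TNFa library beside 1563 to 2934 of Chil3. How many Chil4 counts came from Chil3 transcripts was not tested. The pseudogene Gm6522 shared 217 windows of 50 bases with Chil3 and 83 with Chil4, and held 9 counts over all 18 libraries. Retnla shared 0 of 550 windows of 50 bases with any other annotated gene.

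Library totals ranged from 14793404 to 20056125 counts. All 7 macrophage markers passed the count filter. Their sum in CPM (counts scaled to the TMM-adjusted library size) was 13573 to 24309 in Control, 7855 to 9571 in IL4_IL13 and 8159 to 8948 in IL4_IL13_TNFa. These sums were mostly Lyz2 and Csf1r, and single markers differed more. In the same order, Adgre1 averaged 2307, 1162.5 and 574 CPM, and Fcgr1 130, 21.8 and 0.999 CPM. Mertk and Cd68 were also lower on average with TNFa added, while Lyz2, Csf1r and Itgam were higher. Chil3 is also made by neutrophil precursors, and of 10 markers of neutrophils and their precursors 2 passed the filter. Their summed level was 20.5 to 35.0 CPM in Control, 29.2 to 35.3 in IL4_IL13 and 46.4 to 68.8 in IL4_IL13_TNFa. Nearly all of it was Mmp8 (27.8, 30.9 and 53.1 CPM on average), while Ly6g and Prtn3 had 0 counts in all 18 libraries and Camp had 1. Of 4 eosinophil markers 2 passed, with summed levels of 6.50 to 11.9, 28.1 to 39.2 and 57.7 to 65.1 CPM in the same order. Siglecf accounted for the difference (1.23, 20.6 and 50.7 CPM on average), while Epx had 0 counts in all libraries. Of 4 dendritic cell markers 2 passed, with sums of 1.10 to 3.03, 2.43 to 5.09 and 34.0 to 37.2 CPM, mostly Zbtb46 in IL4_IL13_TNFa (33.9 CPM). Stromal markers, of which 4 of 6 passed, spread widely within each group, from 17.2 to 553 CPM in Control, 47.5 to 482 in IL4_IL13 and 50.1 to 310.5 in IL4_IL13_TNFa. Of 4 monocyte markers 2 passed, with sums of 68.2 to 264, 113 to 158 and 21.2 to 35.9 CPM in the same order. These sums were mostly Ccr2 (140, 129 and 27.3 CPM on average). The 5 epithelial markers together stayed under 0.888 CPM. The part of these markers in the levels of the 3 genes was not tested. The library Control replicate 1, stood apart: its level was more than 2-fold off the average of the remaining controls for 1836 genes, and no other library exceeded 393 genes by the same measure. The log2 differences of the 3 genes from Control are therefore also given without it. Values of other genes and of the gene lists against Control include it.

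Control macrophages held almost no RNA of the 3 genes, and IL-4 with IL-13 raised all of them, Retnla the most of any gene tested by point estimate. Retnla had 0 counts in Control libraries 1 to 4, 6 in library 5 and 1 in library 6. In IL4_IL13 its level was 461 CPM in the lowest library, 1121 CPM at the median and 1704 CPM in the highest. Every IL4_IL13 library lay far above every control, and library 1 was the lowest of its group. Chil3 had 0 to 7 counts in the control libraries. With IL4_IL13 it stood at 116 CPM in the lowest library, 166 CPM at the median and 201 CPM in the highest. These groups did not overlap either, and the spread of Chil3 among the IL4_IL13 libraries (coefficient of variation 17.1%) was narrower than that of Retnla (42.2%). Chil4 had 1 count over all 6 controls, in library 5. In IL4_IL13 it had 41 to 65 counts per library, or 2.43 CPM in the lowest, 2.91 at the median and 3.50 in the highest. Thus Chil4 was detected in every IL4_IL13 library but at a low level, with the least relative spread of the 3 (13.2%).

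**Figure D2:**
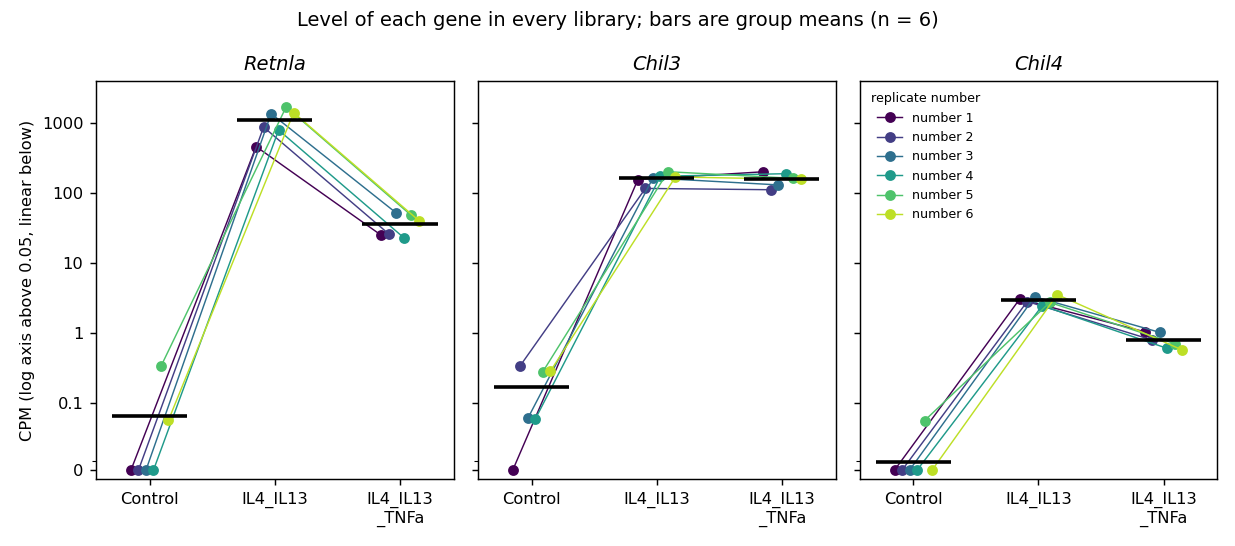
Level of Retnla, Chil3 and Chil4 in each of 18 libraries, in CPM on an axis that is logarithmic above 0.05 and linear below; points are libraries, lines join the same replicate number and bars are group means (n = 6). All 3 genes are near 0 in Control and higher in both cytokine groups; with TNFa, Retnla and Chil4 lie below all IL4_IL13 libraries, and Chil3 overlaps them.

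Fold changes were taken from edgeR's quasi-likelihood test over all 18 libraries, with Benjamini-Hochberg adjustment over 13177 genes and a threshold of 0.05 on the adjusted p. The fit held 3 group means and did not pair the replicate numbers. The ± beside each log2 difference approximates its standard error, as the size of the difference divided by the square root of F. Between IL4_IL13 and Control, all 3 genes were called higher (edgeR). Over all genes tested, 59.0% were called, 29.3% higher and 29.7% lower, and 5.68% were called higher by at least 2-fold. Without Control replicate 1, 9081 genes were called, 4741 of them higher, against 7774 and 3865 with it. All 3 genes passed the count filter through the cytokine groups, with 0 Control libraries over the filter level for each. Retnla and Chil3 were over it in 6 of 6 libraries of both cytokine groups. Chil4 was over it in 6 of 6 IL4_IL13 libraries and 4 of 6 in IL4_IL13_TNFa. The calls of all 3 against Control therefore follow in part from the filter. The Retnla difference of 13.93 ± 0.58 (edgeR adjusted p = 6.2e-13) ranked 1 of 13177 from the highest. Rnase2a ranked 2 at 12.54, and the 95% intervals overlapped (12.72 to 15.15 for Retnla, 11.87 to 13.21 for Rnase2a). The Retnla difference rests on 7 control counts: it was 15.89 without Control replicate 5, which held 6 of them, and 13.68 without Control replicate 1. By counts alone, 112563 against 7 gave a ratio of 16943, with an exact 95% counting interval of 8223 to 42142. Chil3 ranked 6 at a log2 difference of 9.84 ± 0.29 (edgeR adjusted p = 7.3e-15), which was 9.56 when Control replicate 1 was left out, and had a count ratio of 948 (607 to 1575). Chil4 ranked 14 at a log2 difference of 7.50 ± 0.37 (edgeR adjusted p = 4.32e-12), which was 8.65 without Control replicate 5, which held its 1 control count, 7.33 without Control replicate 1 and 6.51 by limma voom. Its count ratio, 312 against 1, was 329 with a counting interval of 58.6 to 13026. In bulk RNA, a change in the number of cells that make a transcript cannot be told apart from a change in the amount per cell.

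Adding TNFa separated the 3 genes. Retnla fell 31.0-fold and Chil4 fell 3.78-fold, while Chil3 did not pass the test. Retnla in IL4_IL13_TNFa was at 22.9 CPM in the lowest library, 33.1 CPM at the median and 51.6 CPM in the highest. The highest of these libraries lay well under the lowest IL4_IL13 library, and the level was lower in all 6 replicate numbers. The log2 difference was -4.95 ± 0.33 with a 95% interval of -5.64 to -4.27 (edgeR adjusted p = 2.6e-10). It ranked 22 of 13177 from the lowest, in a comparison in which 59.6% of genes were called, 30.3% higher and 29.3% lower, and 10.8% were called lower by at least 2-fold. Chil4 in IL4_IL13_TNFa had 9 to 16 counts per library, or 0.563 CPM in the lowest, 0.739 at the median and 1.03 in the highest. Its groups did not overlap, and the level was lower in all 6 replicate numbers. The log2 difference of Chil4 was -1.92 ± 0.20 with a 95% interval of -2.34 to -1.49 (edgeR adjusted p = 1.57e-07), rank 570 from the lowest. Here too Chil4 passed the filter through the group in which it was high, so its call is given as a description of these libraries and not as support.

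Chil3 in IL4_IL13_TNFa was at 111 CPM in the lowest library, 159 CPM at the median and 201 CPM in the highest. These values overlapped those of IL4_IL13 almost entirely, and Chil3 was higher with TNFa in 2 of 6 replicate numbers. The log2 difference was -0.044 ± 0.16 (edgeR adjusted p = 0.827). Its 95% interval of -0.37 to 0.29 corresponds to 0.771-fold to 1.22-fold, so a change of that size in either direction could not be told from none. The neutrophil marker sum, mostly Mmp8, was higher in IL4_IL13_TNFa than in the other groups, and its part in the Chil3 level was not tested.

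Whether the genes answered TNFa by different amounts was tested on their ratio within each library, as log2 of the CPM ratio with a prior count of 2, for the 3 pairs. The log2 ratio of Retnla to Chil3 went from 2.65 ± 0.63 to -2.20 ± 0.69 (SD, n = 6), a difference of -4.85 or 28.8-fold. No IL4_IL13_TNFa library reached the lowest IL4_IL13 library. The log2 ratio of Retnla to Chil4 went from 8.37 ± 0.68 to 5.27 ± 0.59, a difference of -3.10 or 8.59-fold. That of Chil3 to Chil4 went from 5.72 ± 0.33 to 7.47 ± 0.48, a difference of 1.74 or 3.35-fold. Each of the 3 differences had a two-sided exact permutation p of 0.00216, the smallest that 6 against 6 libraries can give, and 0.00216 after adjustment over the 3 pairs. Each was seen in 6 of 6 replicate numbers. The ratios to Chil4 carry the limit of the filter given for Chil4. That of Retnla to Chil3 does not, as both genes were over the filter level in all libraries of these groups.

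**Figure D3:**
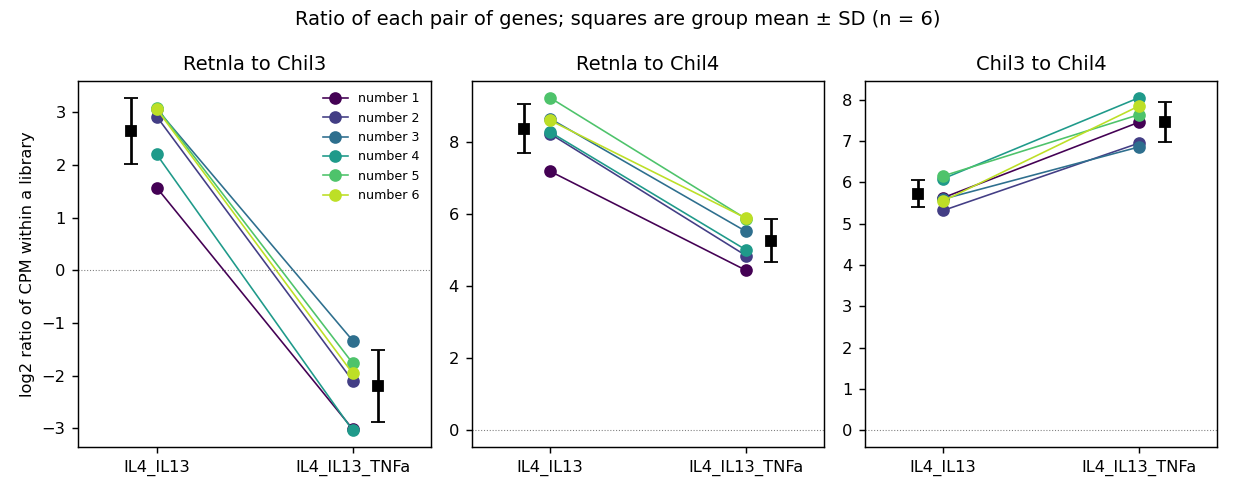
Log2 ratio of CPM between each pair of genes within a library, in IL4_IL13 and IL4_IL13_TNFa; points are libraries, lines join the same replicate number and squares with bars are group means ± SD (n = 6). The ratio of Retnla to Chil3 crosses 0 between the groups, and in all 3 pairs the groups do not overlap.

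Counts of Chil4 were not a fixed share of the counts of the pair. Chil4 made up 1.33% to 2.35% of Chil3 plus Chil4 counts in the IL4_IL13 libraries, 1.83% ± 0.395 on average (SD, n = 6). In IL4_IL13_TNFa the share was 0.314% to 0.767%, 0.512% ± 0.184 on average. The shares of the 2 groups did not overlap. In single libraries the counting error was wide: the lowest IL4_IL13 library, number 5, had 41 of 3088 counts (exact Clopper-Pearson 95% interval 0.954% to 1.80%), and the highest IL4_IL13_TNFa library, number 3, had 16 of 2086 (0.439% to 1.24%). These intervals overlapped, so the separation rests on all 12 libraries rather than on any 2 of them. Such intervals cover counting error only. The share restates the ratio of Chil3 to Chil4 from the same counts, and it carries the limit of the filter given for Chil4.

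**Figure D4:**
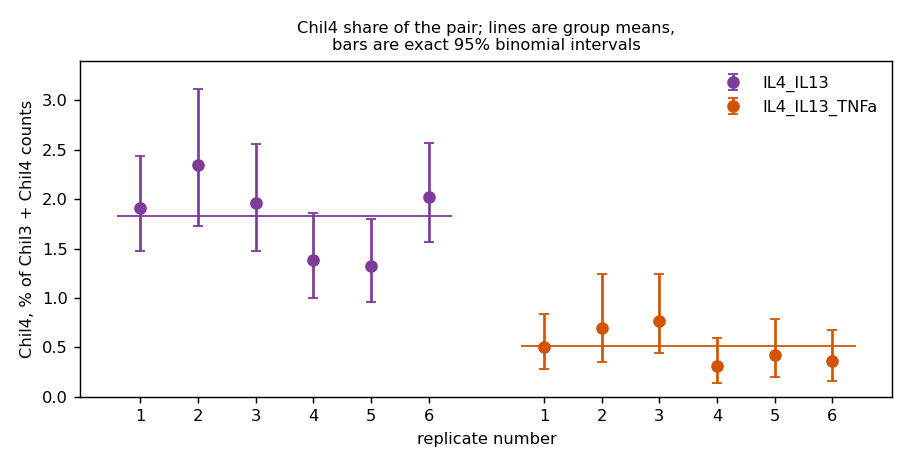
Chil4 counts as a percentage of Chil3 plus Chil4 counts in each library of the cytokine groups, by replicate number; bars are exact 95% binomial intervals and lines are group means. All 6 IL4_IL13_TNFa points (0.314% to 0.767%) lie below all 6 IL4_IL13 points (1.33% to 2.35%).

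Because the transcripts differ in length, levels were compared between genes per kilobase of the main transcript (599 bases for Retnla and 1539 bases for each Chil gene). With IL4_IL13, Retnla stood at 1841 ± 777 CPM per kilobase, Chil3 at 106 ± 18.1 and Chil4 at 1.92 ± 0.254 (SD, n = 6). Retnla was above Chil3 in all 6 libraries, by 7.61 to 21.8 times with a median of 20.4. With TNFa added, Retnla stood at 59.3 ± 21.1 CPM per kilobase, Chil3 at 103 ± 22.0 and Chil4 at 0.506 ± 0.130. The ratio of Retnla to Chil3 was then 0.311 to 1.02 with a median of 0.629, and 1 of 6 libraries, number 3, still had slightly more Retnla. The ranges of the 2 genes overlapped in IL4_IL13_TNFa, 38.2 to 86.2 for Retnla and 72.2 to 130.5 for Chil3, so their order there is less firm than in IL4_IL13. Chil4 was last in both groups, with 41.6 to 74.3 times less per kilobase than Chil3 in IL4_IL13 and 129 to 317 times less in IL4_IL13_TNFa. In Control the 3 genes were at 0.108 ± 0.221, 0.109 ± 0.0940 and 0.00597 ± 0.0146 CPM per kilobase and were not ordered. Over the union of all annotated exons, which for Chil4 holds a retained intron, Chil4 was at 1.05 CPM per kilobase in IL4_IL13 and 0.276 in IL4_IL13_TNFa.

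Compared with Control, all 3 genes were still called higher in IL4_IL13_TNFa (edgeR). Over all genes, 73.8% were called, 36.4% higher and 37.3% lower. This comparison shares its libraries with those above, and the limit of the filter against Control holds here too. Chil4 was over the filter level in 4 of 6 IL4_IL13_TNFa libraries and 0 Control libraries. It was tested here only because the IL4_IL13 libraries, which are outside this comparison, carried it through the filter. Chil3 ranked 5 from the highest, at a log2 difference of 9.79 ± 0.29 (edgeR adjusted p = 1.47e-15), 9.52 without Control replicate 1. Retnla ranked 18, with 8.98 ± 0.61 (edgeR adjusted p = 2.08e-10), 10.93 without Control replicate 5 and 8.72 without Control replicate 1. Chil4 ranked 104, with 5.58 ± 0.44 (edgeR adjusted p = 1.41e-09), 6.73 without Control replicate 5, 5.42 without Control replicate 1 and 4.60 by limma voom. By counts, Retnla was 567 times its Control level (275 to 1410.4), Chil3 924 times (591 to 1535) and Chil4 86.2 times (15.0 to 3453, on 70 counts against 1). The Chil4 values also carry the limit that reads of Chil3 may have been counted for Chil4.

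No relation between the levels of the 3 genes among libraries of 1 condition passed its test. Pearson's r between log2 levels of Retnla and Chil3 was 0.44 in IL4_IL13 (exact permutation p = 0.379, Spearman's rho 0.54, exact permutation p = 0.297) and -0.31 in IL4_IL13_TNFa (exact permutation p = 0.515, rho -0.54, exact permutation p = 0.297). None of the 6 relations computed (3 pairs in 2 groups, n = 6) passed, with every Pearson p at 0.936 and every Spearman p at 0.892 or 0.919 after adjustment over the exact permutation tests. For Retnla and Chil4, r was 0.24 and 0.068 in the 2 groups (exact permutation p = 0.65 and 0.867). For Chil3 and Chil4 it was -0.046 and -0.12 (exact permutation p = 0.936 and 0.808). With so few libraries these values were unstable. Without the 2 libraries farthest from the median, r in IL4_IL13 and IL4_IL13_TNFa was 0.37 and -0.20 for Retnla and Chil3, 0.97 and -0.47 for Retnla and Chil4, and -0.34 and -0.82 for Chil3 and Chil4. Leaving out IL4_IL13_TNFa replicate 2 alone took r for Retnla and Chil3 there to -0.90 (adjusted exact permutation p = 0.25).

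Over all 18 libraries, the genes whose pattern was most like each of the 3 were listed by Pearson's r of log2 CPM (prior count 2). This is a description: r over 3 separated groups mostly reflects the 3 group levels. Nearest to Retnla were Vav2 (0.994), Chil4 (0.992), Gm8113 (0.992), Socs6 (0.989) and Trerf1 (0.989). Vav2 went from 34.1 ± 3.18 to 94.1 ± 6.61 and 67.0 ± 4.32 CPM (SD, n = 6) in Control, IL4_IL13 and IL4_IL13_TNFa. Nearest to Chil4 were Retnla (0.992), Lipn (0.988), Vav2 (0.987), Gm8113 (0.986) and Sh3kbp1 (0.984). Lipn, a lipase gene, went from 1.49 ± 0.326 to 52.5 ± 8.42 and 13.9 ± 1.59 CPM. Nearest to Chil3 were Rnase2a (0.993), Cd300ld (0.992), Il31ra (0.991), Mcf2l (0.990) and Oit3 (0.990). Rnase2a, a ribonuclease A family gene, went from 0.0363 ± 0.0449 to 259 ± 55.3 and 186 ± 35.7 CPM. Cd300ld, a receptor gene of the CD300 family, went from 116 ± 9.42 to 476 ± 31.1 and 550.2 ± 25.5 CPM. In the order of likeness to Chil4, Retnla thus ranked 1 and the neighbour Chil3 ranked 142 (r 0.914).

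The relatives of the 3 genes were mostly silent. In the resistin family, Retnlb lies 23659 bases to one side of Retnla and Retnlg 28160 bases to the other. Retnlb had 0 counts in all 18 libraries, Retnlg had 2 counts in all and Retn, the resistin gene on chromosome 8, had 8. Retnla was the only gene of the family to pass the filter. In the glycoside hydrolase 18 family, Chia1 (acidic chitinase), Chit1 (chitotriosidase), Chil1, Chil5 and Chil6 had 1, 3, 8, 9 and 26 counts over all libraries and stayed under the filter. Of the 5 genes of this family that passed it, 3 were called higher with IL4_IL13 (Chil3, Chil4 and Chid1) and 2 lower (Ovgp1 and Ctbs). Over all genes tested, 29.3% were called higher and 29.7% lower (edgeR). The median log2 difference of the family was 0.44 against -0.0024 over all genes. Both the count and the median include Chil3 and Chil4, whose calls against Control follow in part from the filter. Chid1, a chitinase domain gene, rose from 22.7 ± 2.07 to 30.8 ± 1.16 CPM, or 0.44 ± 0.05 on the log2 scale (edgeR adjusted p = 1.56e-06). Ctbs, which encodes the lysosomal enzyme chitobiase, was at 36.8 ± 2.66 and 30.9 ± 2.62 CPM, or -0.25 ± 0.07 in log2 units (edgeR adjusted p = 0.00512, against 0.09 with no filter). Ovgp1, the oviductal glycoprotein gene, was at 1.09 ± 0.391 and 0.642 ± 0.163 CPM (edgeR adjusted p = 0.0254, and 0.0917 with no filter). Its call was also lost without Control replicates 2, 4 or 6 and without IL4_IL13 replicates 1 or 6. With TNFa added, the family held 1 gene called higher (Chid1, log2 fold change 0.19 ± 0.05, edgeR adjusted p = 0.00573) and 1 called lower (Chil4). Its median was -0.14 against 0.0030 over all genes, of which 30.3% were called higher and 29.3% lower. The Chid1 call was lost with no filter (edgeR adjusted p = 0.0519). Scaled by library totals, the Chid1 difference was -0.021 and the family held 0 genes called higher and 2 lower, Ctbs (-0.34, edgeR adjusted p = 2.65e-04) and Chil4. By that scaling, 2313 of 13177 genes were called higher and 6089 lower. Ctbs also passed with the stricter filter (edgeR adjusted p = 0.0481). The differences of Chid1, Ctbs and Ovgp1 were all under 2-fold with IL4_IL13 against Control and with TNFa added. Between IL4_IL13_TNFa and Control, Ovgp1 was lower by 2.27-fold (edgeR adjusted p = 0.00158).

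The receptor and signalling genes of the IL-4 and IL-13 pathway were read from a list of 12, of which 11 passed the filter. With IL4_IL13, 4 were called higher and 5 lower, at a median log2 difference of -0.059 against -0.0024 over all genes (edgeR), of which 29.3% were called higher and 29.7% lower. The largest rises were in Cish (83.6-fold) and Socs1 (34.1-fold), which encode feedback inhibitors of cytokine signalling. The largest falls were in the receptor chain genes Il13ra1, at -1.71 on the log2 scale, and Il4ra, at -1.16. With TNFa added, 6 of the 11 were called higher and 0 lower, with a median of 0.74 against 0.0030 (edgeR), where 30.3% of all genes were called higher and 29.3% lower. Scaled by library totals, 3 of the 11 were called lower, in a fit that called 6089 of 13177 genes lower. Il13ra1 rose 10.0-fold and Il2rg, the common gamma chain, 4.45-fold, while Stat6 was at a log2 difference of 0.040 ± 0.035 (edgeR adjusted p = 0.344), and at -0.17 scaled by library totals.

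Of 12 transcription factor and chromatin genes linked to alternative activation, 10 were called higher and 2 lower with IL4_IL13, and their median log2 difference was 1.62 against -0.0024 over all genes (edgeR), of which 59.0% were called and 29.3% were higher. Egr2 rose by 5.50 and Irf4 by 4.33 on the log2 scale, while Cebpd was at -1.73 and Stat6 at -0.19, both called lower. With TNFa added, 6 were called higher, 3 lower and 3 were not called, with a median of 0.47 against 0.0030 (edgeR), where 59.6% of all genes were called. Klf4, a zinc finger factor induced through STAT6, fell by 1.89 and Pparg, a nuclear receptor of lipid metabolism, fell by 1.44. Tfec rose by 1.51 and Bhlhe40 by 1.40. Irf4 was at a log2 difference of -0.051 ± 0.24 (edgeR adjusted p = 0.869). The list was chosen with earlier results of these data known. Whether any of its genes acts on Retnla, Chil3 or Chil4 was not tested.

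Other genes of alternative activation also divided when TNFa was added. Of 15 listed genes 14 passed the filter, and all 14 were called higher with IL4_IL13 at a median log2 difference of 3.75 against -0.0024, in a comparison with 29.3% of all genes called higher, the largest in Ear2 (11.40) and Arg1 (10.38). This list was drawn up with its response in these libraries known, so its direction is no independent evidence. With TNFa added, 6 were called higher and 7 lower, with a median of -0.33 against 0.0030 (edgeR), where 30.3% of all genes were called higher and 29.3% lower. The chemokine genes Ccl22 and Ccl17 rose by 6.72 and 5.69 on the log2 scale, and the ribonuclease gene Ear2 and the lectin gene Clec10a were called lower, at -4.61 and -3.08. As point estimates, the Retnla difference of -4.95 lay below that of every gene of this list, and that of Chil3 lay between its falling and rising genes.

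**Figure D5:**
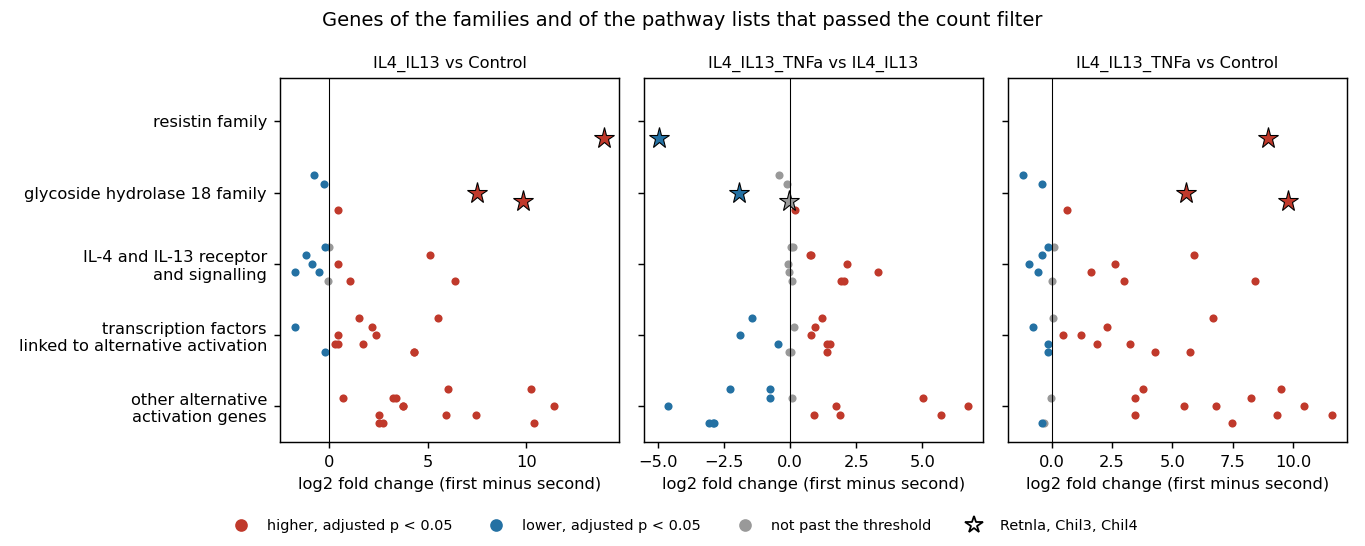
Log2 fold change of each gene that passed the count filter, by family or list (vertical position within a list only separates points), for the 3 comparisons; stars are Retnla, Chil3 and Chil4, and colours give the edgeR call at an adjusted p of 0.05. With TNFa added, Retnla lies below all other genes shown, Chil4 among the falling genes and Chil3 at -0.044.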

How the data were processed

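Poly(A) RNA of 18 libraries was sequenced after a directional NEBNext Ultra II preparation, per the labels' protocols. The deposited table holds unnormalized whole-number counts for each gene. STAR (2.5.2 and 2.5.2b), RSEM 1.3.0, featureCounts 1.5.1, bcl2fastq 2.20.0.422, FastQC 0.11.5 and the build GRCm38 are named in the submitters' processing notes. The role of each tool, the annotation release and the strand setting were not given in the sources used here. Library totals were 14793404 to 20056125 counts. No libraries were copies of each other (lowest chi-square per degree of freedom within a group 2.72).

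Identifiers were matched to GENCODE M21 symbols for 48348 of 48794 genes. With edgeR 4.0.16, filterByExpr (minimum count 10, or 0.595 CPM, in 6 libraries) left 13177 genes, which were scaled by TMM and tested in 1 robust quasi-likelihood fit of 18 libraries (R 4.3.3). Ratios and correlations of genes used exact permutation (scipy 1.17.1). The fits were tested on simulated counts. Alternatives were DESeq2 1.42.0 and its size factors, library totals, no filter, CPM of 5 in 6 libraries, limma voom 3.58.1, a replicate block, only the libraries compared, a prior count of 0.5 and each library left out. Intervals (95%) of count ratios and shares cover counting error only, and those of fold changes are from the edgeR fit and include the spread between libraries.

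The members and gene lists were chosen with earlier results of these data known. Besides them and their families, text names the 5 genes most like each in pattern and at most the 2 largest rises and falls per list and comparison; Irf4 and Stat6 values with added TNFa were chosen after they were seen. Same-numbered libraries deviated together in all 18 pairs (correlations 0.128 to 0.671), and the same number was the best match in 16. Control replicate 4 matched number 6 best in both cytokine groups. The numbers may thus pair the libraries, though the labels give no reason. The main fit and the permutation tests of the ratios did not use this pairing. It entered the replicate block, the sign flips, the counts of replicate numbers and the relations between same-numbered libraries.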

Additional observations from a re-analysis of the deposited data

Results flagged for a closer look

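Of 26 groups of 6 libraries checked for a library far from the others, 3 stood out, all of them controls. Chance alone gives about 1 in 20, but that rate does not hold where most libraries have 0 counts. This was so for Retnla and Chil4 in Control. In Control replicate 5, Retnla was at 0.331 CPM, from 6 counts, while 4 of the other controls had 0. The same library held the single control count of Chil4, 0.0551 CPM. Chid1 was at 26.6 CPM in Control replicate 1, the library that also stood apart over many genes.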

How the results depend on the processing

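Every call of Retnla and Chil4 in the 3 comparisons, and of Chil3 against Control, kept its direction and its side of the threshold, and Chil3 with TNFa added never passed, though its sign turned, over 26 alternatives for Retnla and Chil3 and 24 or 25 for Chil4, which gave no value under the stricter filter and, for the 3 cytokines against Control, in the fit of only the libraries compared. With TNFa added, the log2 difference ranged from -5.16 to -4.79 for Retnla, -2.12 to -1.83 for Chil4 and -0.25 to 0.040 for Chil3. Log2 ratio differences ranged from -5.06 to -4.68 (Retnla to Chil3), -3.34 to -2.93 (Retnla to Chil4) and 1.63 to 1.87 (Chil3 to Chil4). With the replicate number as a block, the log2 difference of Retnla with TNFa was -4.91 with its standard error at 0.15 in place of 0.33. For Chil3 it was -0.052, with a standard error of 0.11 in place of 0.16 (edgeR adjusted p = 0.71). For the ratios, pairing by sign flips gave an exact permutation p of 0.0312, the smallest that 6 pairs allow. The block changed no call of the 3 genes; among the other named genes it changed that of Ctbs with added TNFa, which passed (log2 difference -0.14, edgeR adjusted p = 0.044). Scaling by library totals shifted the median of all genes by -0.21 with added TNFa and by -0.25 for the 3 cytokines against Control. Genes called with added TNFa were then 2313 higher and 6089 lower, against 3999 and 3857 by TMM, and the share of calls that were higher went from 50.9% to 27.5%; against Control it went from 49.7% to 44.2% with IL4_IL13 and from 49.4% to 32.7% with IL4_IL13_TNFa. Under that scaling Chid1 (-0.021) and Stat6 (-0.17) with added TNFa, and Jak1 (-0.15) and Tyk2 (-0.22) for the 3 cytokines against Control, reversed. Without Control replicate 1, Tyk2 was called lower with IL4_IL13 (log2 difference -0.13, edgeR adjusted p = 0.044). Control values of all 3 genes are limited by depth, at 0 to 7 counts per library.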

Other observations

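The Retnla libraries numbered 3, 5 and 6 were the highest of their group in both IL4_IL13 (1366, 1704 and 1412 CPM) and IL4_IL13_TNFa (51.6, 47.7 and 40.3 CPM). Pearson's r of the log2 levels over the 6 numbers was 0.85 (exact permutation p = 0.0556, 0.167 adjusted over the 3 genes) with Spearman's rho 0.77 (exact permutation p = 0.103, 0.308 adjusted). It did not pass. Chil3 gave r = 0.60 (exact permutation p = 0.204, 0.306 adjusted; rho 0.37, exact permutation p = 0.497) and Chil4 r = 0.23 (exact permutation p = 0.637; rho 0.086, exact permutation p = 0.919). Without the 2 libraries farthest from the median, r was 0.95 for Retnla, -0.15 for Chil3 and 0.91 for Chil4, so the values for Chil3 and Chil4 rest on those libraries. Leaving out 1 number each brought Retnla to 0.88 (without number 4, unadjusted exact permutation p = 0.0333) and Chil4 to 0.96 (without number 6, unadjusted exact permutation p = 0.0167). These relations were computed after the levels had been seen, and they are values without an explanation.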
